A study of Mus musculus with 8 samples.

Results

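The head of Mediator is the part of this complex that sits nearest RNA polymerase II, and its subunits are encoded by 9 mouse genes: Med6, Med8, Med11, Med17, Med18, Med20, Med22, Med28 and Med30. All 9 were found by symbol among the 34976 symbols with a value in every library, with 35 transcript rows between them, and the rows of each symbol were summed. The embryos came from CF-1 mice, were injected as early 1-cell embryos and were collected at the late 2-cell stage. One group of 4 libraries had received a scrambled control morpholino (Scr-MO) and the other group of 4 a morpholino that, as labelled, targets the transcription start site of Med13 (Med13-MO). The labels name no other genetic change or agent. Each library was a separate collection of 40 pooled embryos, so differences between single embryos are averaged out, and the tests rest on the variation among collections. The series title names zygotic genome activation as the question.

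Mediator passes signals from DNA-bound activators to RNA polymerase II at promoters. Its head and middle modules form the core that binds the polymerase, the tail module meets activators, and the kinase module, to which MED13 belongs, docks on the core and reversibly blocks polymerase binding. In the head, MED17 is the central architectural subunit, MED6 links the head to the middle, MED11 pairs with MED22, MED18 pairs with MED20 and is held by MED8, and MED28 and MED30 are subunits that budding yeast lacks. At the late 2-cell stage the mouse embryo carries out its main wave of genome activation while mRNAs stored in the egg are being cleared, so an mRNA level here can hold both maternal and newly made transcripts.

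Library totals read back from the FPKM values (fragments per kilobase of transcript, scaled to the library total) ranged from 31378977 to 48050262 fragments. These totals and all fragment numbers given here rest on an assumed step of 0.5 fragments; with a step of 1 they would be 2 times as large, in the same ratios between libraries. Scr-MO replicate 2 stood apart, since its top 10 genes held 20.8% of summed FPKM. That share was 16.4% to 17.5% in the Med13-MO libraries and 12.99% to 13.8% in the remaining Scr-MO libraries. Med13 itself was at 41.3 ± 4.31 FPKM in Scr-MO and 42.2 ± 2.14 in Med13-MO (SD, n = 4 each; two-sided exact permutation p = 0.629, smallest possible 0.0286). A morpholino can act without lowering its target mRNA, so this level does not check the labels. Of 10 tested 2-cell markers 7 were higher and 1 was lower in Med13-MO, with summed levels over all 11 of 183.7 to 274.1 FPKM in Scr-MO and 322.0 to 478.3 in Med13-MO. Of 9 tested oocyte markers 7 were higher, with summed levels over all 11 of 121.5 to 147.2 and 380.1 to 503.4 FPKM. Over all genes tested, 9.29% were called higher and 7.81% lower. The part of these shifts in the values of the head subunits was not tested, and in pooled embryos fewer cells of a type and less RNA per cell cannot be told apart. All 10 cumulus cell markers had a mean below 1 FPKM, with summed levels of 0.757 to 2.59 FPKM in Scr-MO and 0.888 to 1.46 in Med13-MO. All 4 sperm markers with values, 3 of 4 blood markers and 5 of 6 blastocyst markers were also below 1 FPKM. Of 6 oviduct markers 4 were below 1 FPKM, Ovgp1 was lower in Med13-MO, and Epcam was at 23.5 ± 5.65 and 29.5 ± 3.44 FPKM (SD, n = 4 each).

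Med11 was the single head subunit called in the main fit. Its level rose after Med13-MO, while the other 8 subunits did not pass the test (limma on log2(FPKM + 1), adjusted p below 0.05 over the 11755 genes with a mean of at least 1 FPKM). The share of members called, 1 of 9 or 11.1%, compares with 17.1% of all genes tested (9.29% of them higher and 7.81% lower in Med13-MO), so the members' share is no larger than the background. The members' estimates ran in both directions, 5 above 0 and 4 below it, and their median was 0.08 (log2), where all genes tested had -0.06. The median size of the change, without its sign, was 0.27 both for the members and for all genes tested.

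**Figure D1:**
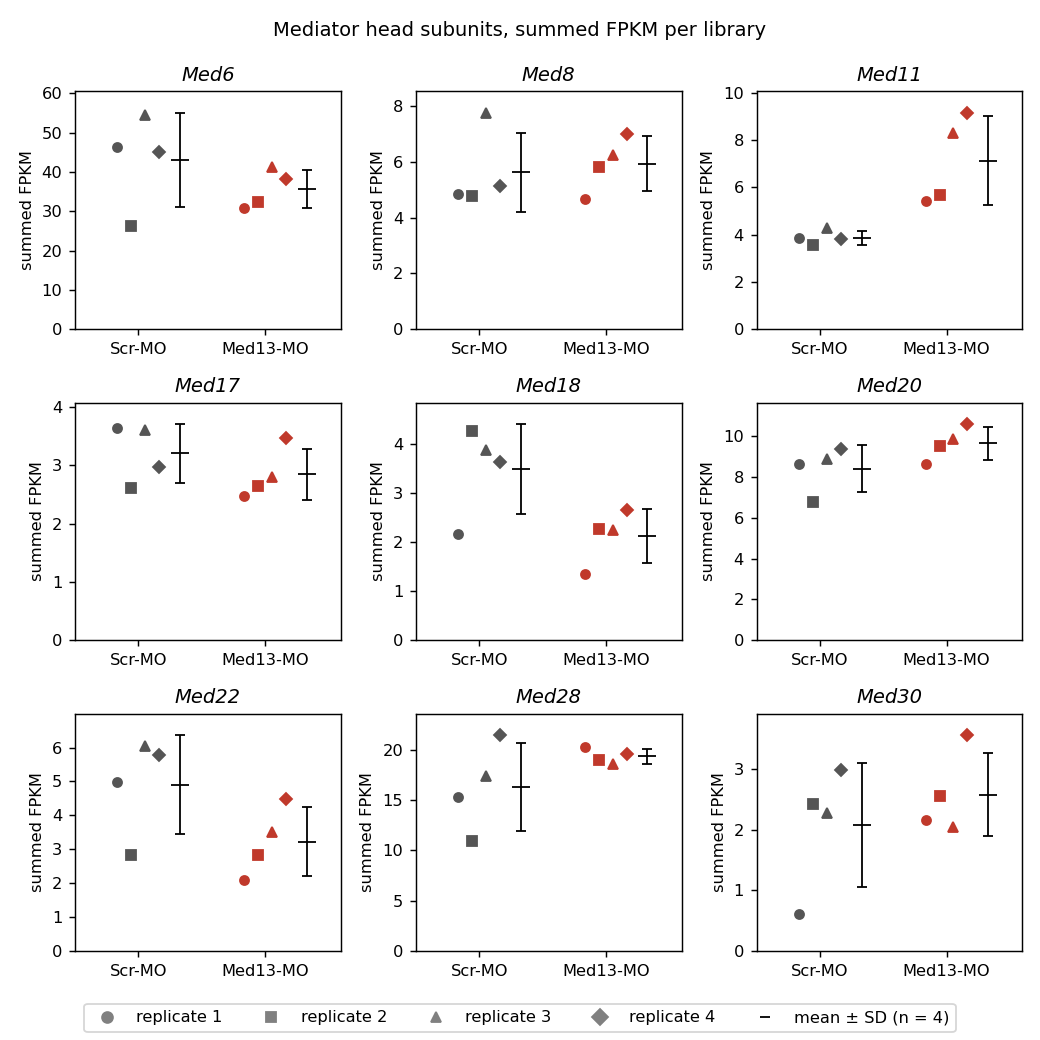
Summed FPKM (y axis, linear, from 0) of each head subunit in the 4 Scr-MO (grey) and 4 Med13-MO (red) libraries (x axis). Symbols mark replicates within a group and were not used as pairs, and bars are the mean ± SD. Med11 is the member whose groups do not overlap, with 3.54 to 4.26 FPKM in Scr-MO and 5.43 to 9.15 in Med13-MO.

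Promoter stretches are shown for 3 members: Med11, which rose, Med18, whose estimate was the lowest, and Med28, the member promoter with a match to the TATA box letters. Each is the 250 bases before the RefSeq start (GRCm38.p6), 5′ to 3′ on the gene's strand, with matches to the motifs searched in capitals. They lie at chr11:70451668-70451917 (plus strand), chr4:132463922-132464171 (minus strand) and chr5:45519979-45520228 (plus strand).
Med11: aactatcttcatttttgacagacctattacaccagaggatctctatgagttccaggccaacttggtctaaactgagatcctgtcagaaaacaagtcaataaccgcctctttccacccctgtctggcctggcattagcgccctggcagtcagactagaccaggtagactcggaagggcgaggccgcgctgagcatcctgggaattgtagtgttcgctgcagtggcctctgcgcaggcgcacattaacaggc
Med18: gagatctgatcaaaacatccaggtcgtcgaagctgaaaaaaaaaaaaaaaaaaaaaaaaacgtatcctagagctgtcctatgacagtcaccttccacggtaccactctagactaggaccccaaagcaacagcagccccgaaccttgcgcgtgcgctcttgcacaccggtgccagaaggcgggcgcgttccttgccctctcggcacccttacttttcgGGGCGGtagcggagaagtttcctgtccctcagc
Med28: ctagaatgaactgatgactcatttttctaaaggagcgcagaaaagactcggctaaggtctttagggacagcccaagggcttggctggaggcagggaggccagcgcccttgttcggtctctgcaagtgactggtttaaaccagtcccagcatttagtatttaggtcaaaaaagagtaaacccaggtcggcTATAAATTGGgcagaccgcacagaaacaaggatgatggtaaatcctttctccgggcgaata
The motifs were the TATA box (TATAAA), the CCAAT box (CCAAT), the GC box (GGGCGG), an ETS core (CCGGAAG), an NRF1 core (GCGCATGC) and a YY1 core (AAGATGGC), read on both strands. The Med18 stretch held a GC box from -33 to -28. The Med28 stretch held a match to the TATA box letters from -61 to -56 that shared its last base with a CCAAT box on the opposite strand. Whether any of these matches works as a promoter element was not tested. None of the 6 motifs occurred letter for letter in the Med11 stretch. Variant spellings were not searched, so a motif not found here is not shown to be absent. For example, the Med11 stretch holds gcgcaggc near its end, with g in place of the T of the NRF1 core. Among the 7 members matched in the promoter table (all but Med8 and Med30), a GC box was found in 4 (Med6, Med18, Med20, Med22), a CCAAT box in 3 (Med6, Med17, Med28), and an ETS core and an NRF1 core in Med17. In all 27025 promoters of the table the shares were 13% for the TATA box, 34.5% for CCAAT, 32.9% for the GC box, 7.05% for ETS, 2.32% for NRF1 and 1.59% for YY1. The 7 member promoters had a median of 16 CpG dinucleotides, against 6 over all promoters, and a median GC content of 53.6% against 52%. The Med11 and Med28 stretches held 9 and 8 CpG and lay at the low end, and Med22 held the most, 28.

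Med11 (ENSMUSG00000018923, GRCm38 chromosome 11, 70451919 to 70453727, plus strand) encodes a small head subunit that forms a helical bundle with MED22. It measured 3.87, 3.54, 4.26 and 3.82 FPKM in Scr-MO replicates 1 to 4 and 5.43, 5.66, 8.31 and 9.15 FPKM in Med13-MO replicates 1 to 4. Every Med13-MO library was above every Scr-MO library, and Med13-MO replicates 3 and 4 were the highest. The groups of Med11 did not overlap, as was the case for 21.6% of all genes tested (10.4% higher in Med13-MO) and for no other member. The group means were 3.87 ± 0.297 and 7.14 ± 1.87 FPKM (SD, n = 4 each). All fold changes and intervals of the main fit given here are on FPKM + 1. On that scale the log2 fold change was 0.71 ± 0.18 (SE, limma adjusted p = 0.0177), or 1.64-fold with a 95% interval from 1.26 to 2.14. The ratio of the FPKM means themselves was larger. This change was above that of 93.4% of the genes tested. The call ended without Med13-MO replicate 3 (log2 fold change 0.64, limma adjusted p = 0.0586) and with no filter on low values (adjusted p = 0.0579). Exons of Med11 shared no base with another annotated gene.

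Of the 3 transcript rows of Med11, the largest passed the test by itself, and all 3 had higher means in Med13-MO. The protein-coding row of 902 bases measured 1.94, 2.57, 2.56 and 2.28 FPKM in Scr-MO and 3.39, 3.59, 5.21 and 5.38 FPKM in Med13-MO, and its groups did not overlap. Of 21 member rows tested it was the 1 called (estimate 0.68 log2, SE 0.16; limma adjusted p = 0.0155), against 15.7% of all 21052 rows tested. This row rested on 66 to 222 fragments per library. A retained-intron row of 870 bases measured 1.63, 0.481, 1.38 and 1.20 FPKM in Scr-MO and 1.57, 1.71, 2.42 and 2.94 in Med13-MO. The groups of that row overlapped and it missed the threshold (estimate 0.55 log2, SE 0.19; limma adjusted p = 0.0704). The non-coding row made up 29.9% ± 11.9 of the summed Med11 FPKM in Scr-MO and 30.1% ± 1.49 in Med13-MO (SD, n = 4 each). Isoforms share exons, so these rows are not independent of each other.

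**Figure D2:**
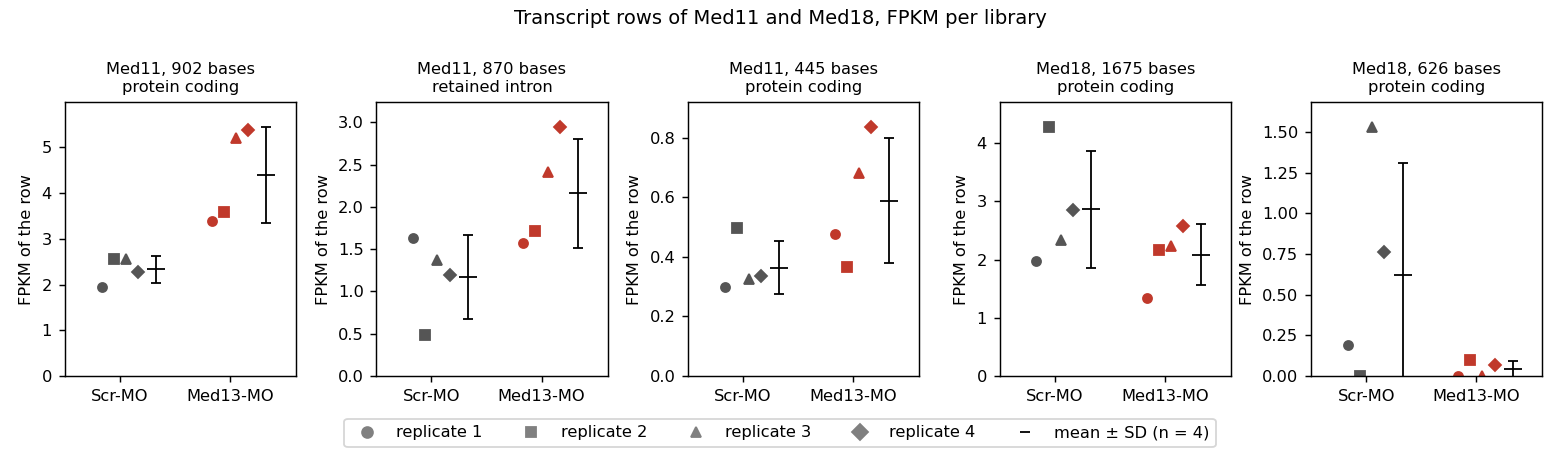
FPKM (y axis, linear, from 0) of the 3 transcript rows of Med11 and the 2 of Med18 in each library (x axis, group; symbols mark replicates; bars are the mean ± SD, n = 4, with lower arms cut at 0). The 902-base Med11 row runs from 1.94 to 2.57 FPKM in Scr-MO and from 3.39 to 5.38 in Med13-MO, and the 626-base Med18 row is close to 0 in all Med13-MO libraries.

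Med22 (chromosome 2, 26905262 to 26910677, minus strand), which encodes the partner of MED11, had an estimate of the opposite sign. It measured 4.99, 2.84, 6.04 and 5.77 FPKM in Scr-MO and 2.09, 2.84, 3.51 and 4.48 in Med13-MO. Scr-MO replicate 2 lay among the Med13-MO values, and the other 3 Scr-MO libraries were above all Med13-MO libraries. The log2 fold change was -0.48 ± 0.22 (SE; limma adjusted p = 0.165), with an interval from 0.51-fold to 1.01-fold. Without Scr-MO replicate 2 the log2 fold change was -0.67 and Med22 was called (limma adjusted p = 0.0336). Its 2 tested rows, of 3506 and 973 bases, both encode protein and both had negative estimates, -0.44 and -0.31 (log2, limma adjusted p = 0.138 and 0.223). The ratio of Med11 to Med22 FPKM was 0.776, 1.25, 0.706 and 0.661 in Scr-MO and 2.60, 1.99, 2.37 and 2.04 in Med13-MO. The ratio did not overlap between the groups. Neither did Med11 alone, as was the case for 21.6% of all single genes tested. The share of gene ratios that would separate in this way was not determined. The ratio was formed after the values were seen and carries no test.

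Med18, Med20 and Med8 encode the movable jaw of the head and the subunit that tethers it. Med18 (chromosome 4, 132458731 to 132463921, minus strand) measured 2.16, 4.27, 3.87 and 3.62 FPKM in Scr-MO and 1.34, 2.27, 2.24 and 2.65 in Med13-MO. Scr-MO replicate 1 lay within the Med13-MO range and the other 3 Scr-MO libraries lay above it. The log2 fold change was -0.51 ± 0.19 (SE), the interval ran from 0.52-fold to 0.94-fold, and the adjusted p over all genes was 0.0883 (limma), so Med18 did not pass. Without Scr-MO replicate 1 it was called, with a log2 fold change of -0.67 (limma adjusted p = 0.0338). The sum included a 626-base coding row that measured 0.191, 0, 1.53 and 0.762 FPKM in Scr-MO and 0, 0.0998, 0 and 0.0698 in Med13-MO. That row held 46 fragments in Scr-MO replicate 3, 16 in replicate 4 and at most 4.5 in any other library, and its mean was too low to be tested. The 1675-base row alone had a log2 fold change of -0.31 ± 0.19 (SE, limma adjusted p = 0.293).

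Med20 (chromosome 17, 47611582 to 47624418, plus strand) measured 8.62, 6.76, 8.90 and 9.36 FPKM in Scr-MO and 8.65, 9.54, 9.85 and 10.6 in Med13-MO. The groups overlapped, with Scr-MO replicate 2 lowest, and the log2 fold change was 0.18 ± 0.15 (SE, limma adjusted p = 0.421; interval 0.91-fold to 1.43-fold). Without Scr-MO replicate 2 it was 0.095. Of the exonic bases of Med20, 28.4% were shared with other annotated genes. A pseudogene on the opposite strand shared 21.4%, and its reads cannot be told apart without a stated strand setting. Gm20517 on the same strand shared 7.0%, and no strand setting would separate its reads there from those of Med20. The ratio of Med20 to Med18 ran from 1.58 to 3.99 in Scr-MO and from 4.00 to 6.44 in Med13-MO. This ratio too was formed after the values were seen, and its groups were adjacent without a clear gap. The share of gene ratios that would separate was not determined here either.

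Med8 (chromosome 4, 118409337 to 118415782, plus strand) measured 4.84, 4.78, 7.76 and 5.15 FPKM in Scr-MO and 4.68, 5.81, 6.27 and 7.01 in Med13-MO. Its 10 rows were the most of any member, and the largest had a mean of 1.496 FPKM over the 8 libraries. Scr-MO replicate 3 was the highest of all 8 libraries and the ranges overlapped throughout. The log2 fold change was 0.08 ± 0.18 (SE, limma adjusted p = 0.794; interval 0.81-fold to 1.38-fold), and it ran from 0.0047 (without Med13-MO replicate 4) to 0.22 (without Scr-MO replicate 3) over the fits without 1 library.

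Med17 and Med6 encode the core of the head and its link to the middle module. Med17 (chromosome 9, 15260351 to 15279931, minus strand) had a single row of 3964 bases and measured 3.64, 2.61, 3.60 and 2.97 FPKM in Scr-MO and 2.47, 2.65, 2.80 and 3.47 in Med13-MO. The ranges overlapped, and the log2 fold change of -0.13 ± 0.15 (SE, limma adjusted p = 0.600) had an interval from 0.73-fold to 1.15-fold, and it ran from -0.20 to -0.077 over the fits without 1 library. Med6 (chromosome 12, 81573557 to 81595008, minus strand) measured 46.4, 26.3, 54.5 and 45.2 FPKM in Scr-MO and 30.9, 32.2, 41.3 and 38.1 in Med13-MO. Scr-MO replicate 2 was below every Med13-MO library and the other 3 Scr-MO libraries were above them all. The log2 fold change was -0.23 ± 0.22 (SE, limma adjusted p = 0.491; interval 0.62-fold to 1.18-fold), and no single library left out made it a call. Without Scr-MO replicate 2 it was -0.44 (limma adjusted p = 0.0738), and without Scr-MO replicate 3 it was -0.10 (limma adjusted p = 0.816). Among the 6 rows of Med6, a retained-intron row of 636 bases had the lowest estimate, -0.51 ± 0.19 (log2, SE; limma adjusted p = 0.0925), with 4.71 ± 1.52 FPKM in Scr-MO and 2.93 ± 0.480 in Med13-MO (SD, n = 4 each).

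Med28 and Med30 encode the subunits without a yeast counterpart. Med28 (chromosome 5, 45520229 to 45529276, plus strand), also known as a partner of the cytoskeletal tumour suppressor merlin, measured 15.3, 10.96, 17.3 and 21.4 FPKM in Scr-MO and 20.2, 19.0, 18.6 and 19.5 in Med13-MO. The Med13-MO libraries lay inside the Scr-MO range and were close together, with a coefficient of variation of 3.69% against 26.7% in Scr-MO. The log2 fold change was 0.27 ± 0.19 (SE, limma adjusted p = 0.337; interval 0.91-fold to 1.599-fold). It was 0.11 without Scr-MO replicate 2 and 0.41 without Scr-MO replicate 4. Med30 (chromosome 15, 52712408 to 52730564, plus strand) had a single row of 1007 bases and measured 0.609, 2.42, 2.27 and 2.98 FPKM in Scr-MO and 2.16, 2.55, 2.05 and 3.55 in Med13-MO. Scr-MO replicate 1 was the lowest library, at 23 fragments, and the remaining values overlapped. The log2 fold change of 0.28 ± 0.25 (SE, limma adjusted p = 0.472; interval 0.83-fold to 1.78-fold) went to 0.00 without that library.

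**Figure D3:**
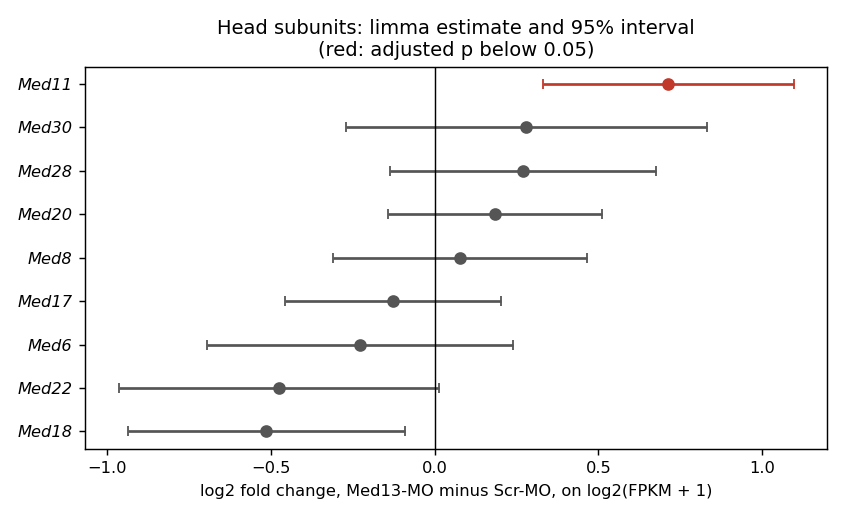
Log2 fold change on log2(FPKM + 1), Med13-MO minus Scr-MO (x axis), for each head subunit (y axis), with the limma estimate as a point and its 95% interval as a bar; red marks an adjusted p below 0.05. Med11 (0.71) is the red point, and the estimates go down to -0.51 for Med18.

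For the 8 subunits that were not called, the lowest bound of any 95% interval was 0.51-fold (Med22) and the highest 1.78-fold (Med30). These bounds are on FPKM + 1, where the change of a low gene is understated. With a pseudocount of 0.1 the log2 fold change of Med30 was 0.46 in place of 0.28. That of Med18 was then -0.68 in place of -0.51. Missing the threshold for a call does not show that the levels were equal. At an unadjusted p below 0.05, 2 of 9 members passed (Med11 and Med18), against 32.4% of all genes tested.

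The order of the levels depended on how rows were combined, because a summed FPKM grows with the number of overlapping isoform rows. In summed FPKM, Med6 was highest in Scr-MO (43.1 ± 11.95), followed by Med28 (16.3 ± 4.35) and Med20 (8.41 ± 1.14), and the ranges of these 3 did not overlap. From Med20 down through Med8, Med22, Med11, Med18, Med17 and Med30 (2.07 ± 1.02), each subunit's range overlapped that of the next. By the largest row alone, Med6 was still highest (11.5 ± 2.75 FPKM in Scr-MO), Med20 and Med28 overlapped at 5.72 ± 0.847 and 5.67 ± 1.54, and Med8 was lowest at 1.51 ± 0.418. For Med28 that row, of 778 bases, is annotated as non-coding, and the largest coding row of Med28 was at 3.95 ± 0.974 in Scr-MO. Non-coding rows made up 39.9% of summed FPKM in Scr-MO for Med28, 32.0% for Med20 and 17.3% for Med6. In Med13-MO, Med11 moved from rank 6 to rank 4 in summed FPKM and from rank 7 to rank 4 by largest row. It then lay next to Med8 in summed FPKM with overlapping ranges, and above Med17 by largest row, where the ranges also overlapped. Med18 moved from rank 7 to rank 9 in summed FPKM, where its range overlapped that of Med30, the subunit just above it.

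Within each group the lowest values came mostly from a single library, and in Med13-MO so did the highest. Scr-MO replicate 2 held the lowest Scr-MO value for 7 of the 9 subunits, and Med13-MO replicate 1 the lowest Med13-MO value for 7. Med13-MO replicate 4 held the highest Med13-MO value for 7. The median deviation of the 9 subunits from their group means was -0.21 (log2) in Scr-MO replicate 2, where all genes tested had -0.16, and -0.19 in Med13-MO replicate 1, where all genes tested had -0.07. In Med13-MO replicate 4 these medians were 0.22 and 0.10. The part of library-wide shifts in the member values was not tested beyond the scaling alternatives, under which median-ratio scaling gave Med11 a log2 fold change of 0.75 and quantile normalization 0.71. Across the 8 libraries Med6 and Med22 were the pair of subunits most alike (Pearson r = 0.88), followed by Med17 and Med22 (0.85) and Med20 and Med28 (0.84), and Med18 and Med28 the least (-0.46). With the group means removed, the pair most alike was Med20 and Med22 (0.97, against 0.30 over all 8 libraries), followed by Med6 and Med22 (0.88) and Med6 and Med20 (0.88). Med18 and Med28 were then at -0.18, and Med17 and Med30 were the least alike, also at -0.18. These correlations share libraries and their depth and are given as descriptions.

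By the same measure over 8 libraries, the 3 named genes most like Med11 were Stk35 (r = 0.978), Ctrb1 (0.977) and Tbc1d10b (0.975). In all, 68 named genes reached an r of 0.9 with Med11. For Med6, the subunit with the highest level, the most alike were Baz2b (r = 0.981), Fam214a (0.979) and Cwc27 (0.972), and 146 named genes reached 0.9. The libraries fall into 2 groups, and no test was made.

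**Figure D4:**
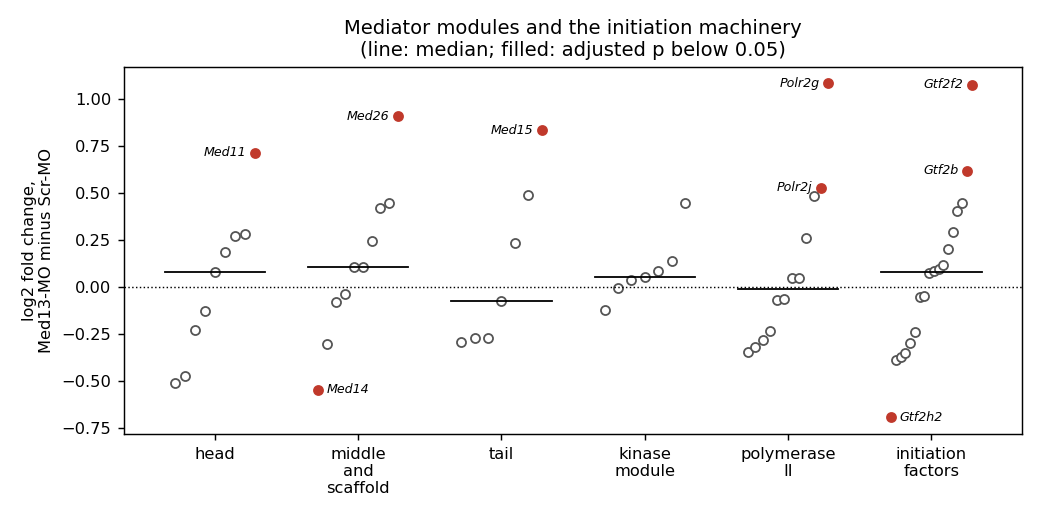
Log2 fold change on log2(FPKM + 1), Med13-MO minus Scr-MO (y axis), of the genes of each Mediator module, RNA polymerase II and the initiation factors (x axis), ordered by value within a group; filled points have an adjusted p below 0.05 and lines are medians. Each Mediator module other than the kinase module holds at least 1 filled point, and the head median is 0.08.

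Of 24 other Mediator genes, all of them tested, 2 rose and 1 fell (12.5% called, against 17.1% of all genes tested, 9.29% higher and 7.81% lower). In the middle module with the scaffold, 1 of 10 rose, Med26, which joins Mediator to elongation factors (3.42 ± 1.04 FPKM in Scr-MO, 7.29 ± 1.97 in Med13-MO; estimate 0.91 log2, SE 0.22, limma adjusted p = 0.0146). The scaffold Med14, which holds head, middle and tail together, fell, with 48.1 ± 6.45 FPKM in Scr-MO and 32.4 ± 2.07 in Med13-MO (SD, n = 4; estimate -0.55 log2, SE 0.15, limma adjusted p = 0.0286). In the tail 1 of 7 rose, Med15, a target of activators (5.92 ± 1.39 FPKM in Scr-MO, 11.3 ± 1.96 in Med13-MO; estimate 0.83 log2, SE 0.18, limma adjusted p = 0.0105), and of 7 kinase module genes none was called by limma in either direction (1 at an unadjusted p below 0.05). Median log2 fold changes were 0.11, -0.08 and 0.05 for these 3 modules. Of the 12 subunits of RNA polymerase II, the partner the head binds, 2 rose, Polr2g (log2 fold change 1.08, limma adjusted p = 0.00138) and Polr2j (0.53, 0.0396). Of 18 initiation factors 2 rose, Gtf2f2 (log2 fold change 1.07) and Gtf2b (0.62), and 1 fell, Gtf2h2 (-0.69), and these counts too stand against 17.1% of all genes tested.

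Of the 16 alternative settings, 2 left no head subunit called by limma. These were the fit with no filter on low values, where 2.89% of all genes were called, and the fit without Med13-MO replicate 3, where 10.6% were. In each of these 2 fits 2 subunits had an unadjusted p below 0.05. Sample weights called 4 head subunits (Med6, Med11, Med18 and Med22), with 36.9% of all genes called. Leaving out Scr-MO replicate 1 added Med18 (13.9% of all genes called), and leaving out Scr-MO replicate 2 added Med22 (20.5%). Under every other setting Med11 was the single head subunit called, while the share of all genes called was 18.7% with median-ratio scaling, 19.4% with quantile normalization, 16.7% with a pseudocount of 0.1, 20.5% at a mean of at least 5 FPKM, 18% with coding rows and 18.3% with main rows. In the remaining fits without 1 library, which also called Med11 alone, it was 8.29% (Med13-MO replicate 2), 9.38% (Scr-MO replicate 3), 11.3% (Med13-MO replicate 1), 12.8% (Scr-MO replicate 4) and 17.5% (Med13-MO replicate 4).

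Among the transcript rows of head subunits, 6 of 21 were called with sample weights, where 36% of all rows were called. Median-ratio scaling and quantile normalization called 2 each, with 16.8% and 17.7% of all rows called. With no filter limma called none of the 35 rows (4 at an unadjusted p below 0.05; 2.02% of all rows called), and at a mean of at least 5 FPKM none of 6 (0 at an unadjusted p below 0.05; 19.1%). A pseudocount of 0.1 called 1 (15.4%). Leaving out Scr-MO replicate 2 gave 3 rows (19.1% of all rows called), and leaving out Med13-MO replicate 3 gave 0 (2 at an unadjusted p below 0.05; 10.1%). Each of the other fits without 1 library called 1 row, and the share of all rows was 12.8%, 9.21% and 12.4% without Scr-MO replicates 1, 3 and 4 and 10.7%, 8.23% and 15.9% without Med13-MO replicates 1, 2 and 4.

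**Figure D5:**
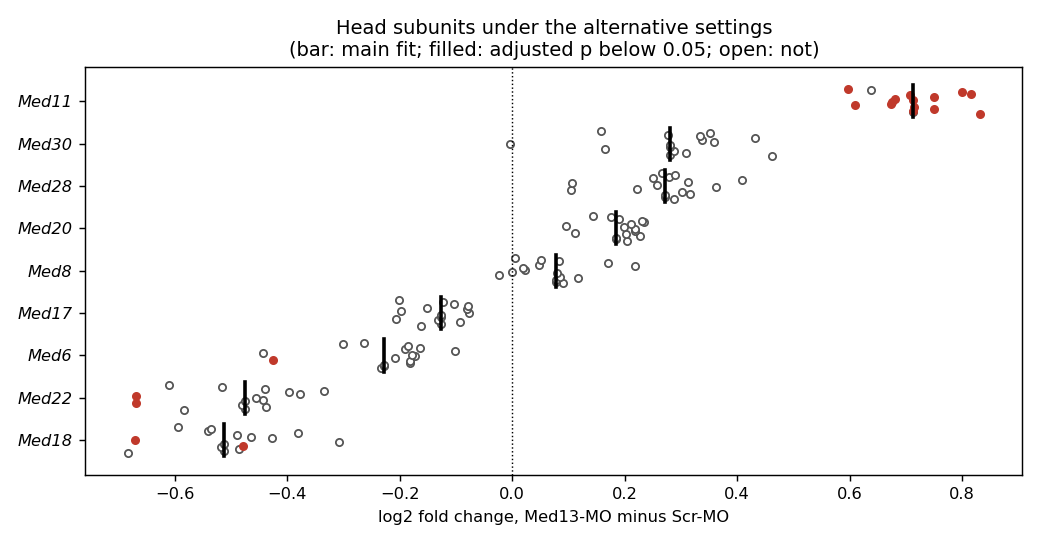
Log2 fold change, Med13-MO minus Scr-MO (x axis), of each head subunit (y axis) under every alternative setting; black bars are the main values, filled points have an adjusted p below 0.05 and open points do not. Med11 stays between 0.60 and 0.83 under all settings run. Med8, Med17, Med20, Med28 and Med30 are open throughout, and single points cross 0 for Med8 and Med30.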

How the data were processed

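The authors deposited 1 table of FPKM values, 97496 rows of Ensembl transcripts with gene symbols and 1 column per library. Per the labels' protocols, RNA of 40 embryos a collection was amplified (Ovation RNA-Seq System V2) and 400 ng of cDNA went into TruSeq libraries, without molecular identifiers. Per the submitters' processing notes, BWA and the mm10 build were used; the counting tool, the strand setting and the handling of reads shared by isoforms are not stated there or in the labels. In 3758 rows, all with a hyphen in the symbol, text displaces the values by 1 column; they were left out, and no member is among them. Lengths, loci and overlaps came from GENCODE M21 (GRCm38, the assembly of mm10), which matched 98.7% of the rows used, and promoter sequences from RefSeq (GRCm38.p6). Multiplied by length, 94.3% to 94.5% of values up to 20 fragments were multiples of 0.5 fragments within 0.005, which gave the library totals.

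Rows were summed per symbol, genes with a mean of at least 1 FPKM over 8 libraries kept, and log2(FPKM + 1) tested with limma 3.58.1 in R 4.3.3 (trend, two-sided, no covariate, Benjamini-Hochberg over all genes tested); single rows were fitted the same way. On that scale a fold change understates the change of low genes. The members, lists and the rule for named genes (all members; other listed genes that pass; the 3 most alike genes of each called member and of the most abundant member) were chosen with earlier results of these data known. Alternatives were a pseudocount of 0.1, no filter, a mean of at least 5 FPKM, 2 scalings, sample weights, coding rows or the main row only, and leaving out each library. For Med13 these settings, without sample weights, were added after the data were seen.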

Additional observations from a re-analysis of the deposited data

Results flagged for a closer look

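Med8 in Scr-MO replicate 3 was flagged because it lay far from the other Scr-MO libraries, at 7.76 FPKM where they had 4.78 to 5.15. The gap to the nearest of them was 0.877 of the group's range, above Dixon's critical value for 4 samples. Among the 9 subunits in 2 groups this was the only such value, and chance flags about 1 in 20 groups. Without that library the log2 fold change of Med8 was 0.22 (limma adjusted p = 0.460).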

How the results depend on the processing

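No paired analysis was run, since the labels state no pairing. They give each library a number of its own and no replicate number that the groups share. These library numbers alternate between the groups, so whether collections were made side by side is not known. The count of all genes called, 2010, was 1012 with no filter, 1137 at a mean of at least 5 FPKM and 4336 with sample weights, and 975 to 2406 over the fits without 1 library. The count of head subunits called, 1, was 0 with no filter (background 2.89%) and 4 with sample weights (Med6, Med11, Med18 and Med22; background 36.9%), and 0 to 2 without 1 library; the cause was not tested. Of the member rows, 1 was called, where 15.7% of all rows tested were. The count was 0 with no filter (background 2.02%) and 0 of 6 rows at a mean of at least 5 FPKM (19.1%). It was 2 with median-ratio scaling (16.8%), 2 with quantile normalization (17.7%) and 6 with sample weights (36%). Without 1 library it was 0 to 3 (8.23% to 19.1%). At a mean of at least 5 FPKM, 5 members were tested, and 4 had no value. Med8 (0.08) turned to -0.024 with sample weights. Without 1 library Med30 (0.28) ran from -0.0040 (without Scr-MO replicate 1) to 0.43, and the Med13 difference (0.03) from -0.0011 (without Scr-MO replicate 3) to 0.10. Direction held for the other 7 members under every setting run, and Med11 stayed called in 14 of 16 alternatives. Few fragments limit the low members, with 23 to 164 per library for Med30 and 53.5 to 113 for the 1145-base Med8 row, a counting error that does not cover amplification.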
